A study of Mus musculus with 14 samples.

Results

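The genes described here are 33 genes of glycolysis, lactate and pyruvate handling, and glycogen metabolism, out of 24444 genes measured by RNA sequencing in mouse cortex. They were taken by symbol, and all 33 symbols were found in the tables of both mouse models. Cortex of miR29Nestin mice was compared with that of miR29WT mice at postnatal day 40 (P40, 3 libraries each). In miR29Nestin mice both clusters of microRNA-29 genes (miR-29a with miR-29b1, and miR-29b2 with miR-29c) carry loxP sites and are removed by Cre recombinase expressed from Nestin-Cre. Nestin-Cre acts in neural progenitors, so neurons, astrocytes and oligodendrocytes that descend from them lose the microRNA, whereas microglia and endothelium have other origins. The labels do not say whether miR29WT mice carry the floxed alleles or Cre. In the other model, Dnmt3a-mi5 mice were compared with Dnmt3a-WT mice at 4.5 months (4 libraries each). Dnmt3a-mi5 mice carry a knock-in that alters the 3′ UTR of Dnmt3a, a DNA methyltransferase, at its 5 binding sites for miR-29, while the microRNA itself is left intact. Whether the knock-in was homozygous, and whether a library is 1 mouse, is not given in the sources used here.

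Glycolysis splits glucose into pyruvate in the cytosol. Pyruvate is then reduced to lactate by lactate dehydrogenase or enters the mitochondrion through pyruvate dehydrogenase, which the PDK kinases switch off. Glycogen is the brain's glucose store and is kept mainly in astrocytes; glycogen phosphorylase releases glucose-1-phosphate from it, and phosphoglucomutase turns that into the glycolytic intermediate glucose-6-phosphate. Many of these steps have several isozymes, named after muscle, liver, brain or other tissues, and neurons and astrocytes use different ones.

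MicroRNA-29 binds messages through its seed, bases 2 to 8 from the 5′ end, which is shared by its 3 forms and is shown in capitals in the mature sequences from RefSeq (GRCm38.p6). The miR29Nestin deletion removes these molecules, and the Dnmt3a-mi5 knock-in removes matches to the seed from 1 message.

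mmu-miR-29a-3p: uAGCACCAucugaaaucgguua

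mmu-miR-29b-3p: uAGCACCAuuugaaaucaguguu

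mmu-miR-29c-3p: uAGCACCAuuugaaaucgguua

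The longest annotated 3′ UTR of each gene (GENCODE M21, GRCm38) was searched for TGGTGCT, the match to that seed, on the transcribed strand. The match was found in 2 of the 33 genes (6.1%), against 16.6% of 11556 tested genes with a 3′ UTR. The median 3′ UTR was 1054 nt long for the 33 genes and 1324 nt for the tested genes. The 2 windows are printed because they are the only places in these genes' longest 3′ UTRs that the seed matches, with the match in capitals and 10 bases on each side.

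Slc2a3: aaagaaagttTGGTGCTggagagaggt

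Pfkfb2: taagccccatTGGTGCTgtgtgcactc

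The Slc2a3 match begins at base 585 of a 3′ UTR of 2122 nt, at chr6:122729340-122729346 on the minus strand. The Pfkfb2 match begins at base 723 of a 3′ UTR of 2834 nt, at chr1:130697156-130697162 on the minus strand. Neither is followed by an A, which would have made the longer match TGGTGCTA. Of 2955 genes with a 3′ UTR about as long as that of Slc2a3, 19.1% held a match, and of 2533 genes with one about as long as that of Pfkfb2, 25.5% did. A match describes the letters of this window and is no measure of binding.

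The values below are normalised counts per library, recovered from the deposited log2 values, and log2 differences (mutant minus wild type) on the deposited variance-stabilised scale, tested with limma. That scale compresses low counts, so a log2 difference can be smaller than the fold between the mean counts. The recovered depth of the miR29 libraries was 9183816 to 14418033 reads in genes, and libraries of a group correlated at 0.995 to 0.999. The depth of the Dnmt3a libraries is unknown, and their recovered counts are approximate because an additive effect between 2 sets of 4 libraries had been removed from the deposited values. Dnmt3a itself averaged 5529 ± 299.6 in the libraries without miR-29 and 1662 ± 59.2 in their wild type (SD, n = 3 each), and 2080 ± 151 in Dnmt3a-mi5 and 1145 ± 84.6 in its wild type (SD, n = 4 each). It was called higher in both models (limma, adjusted p = 8.18e-08 and 0.00153). By a Y-linked gene, 1 of 3 miR29Nestin and 2 of 3 miR29WT libraries came from males.

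In miR29Nestin cortex, 12 of the 33 genes passed the test (limma, adjusted p under 0.05 over 12014 genes tested). Of these, 8 were higher (Slc2a3, Pfkm, Eno2, Ldhb, Pdhb, Pgm2, Pygm and Phka1) and 4 lower (Gpi1, Ldha, Pdk1 and Pgm2l1). Over all genes tested, 19.1% were called, 9.02% higher and 10.0% lower. The log2 differences of the 33 genes ran from -0.60 to 1.12 with a median of 0.02, beside a median of -0.01 over all genes tested. The median size of the difference, sign left aside, was 0.14 for the 33 genes and 0.10 for all genes tested. Calls were spread over the steps as 1 of 3 genes of glucose entry and hexokinases, 2 of 8 of upper glycolysis, 1 of 6 of lower glycolysis, 4 of 6 of lactate and pyruvate, and 4 of 10 of glycogen. The mutant and wild-type libraries did not overlap for 9 genes that lay above and 9 that lay below, where 37.3% of all genes tested were so separated (18.6% above and 18.7% below). Lactate dehydrogenase had 1 isozyme called in each direction.

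In Dnmt3a-mi5 cortex, 32 of the 33 genes were abundant enough to be tested, and limma called 0 of them. Over the 10670 genes tested there, 0.122% were called, 0.0281% higher and 0.0937% lower. At an unadjusted p under 0.05, 3 of the genes were higher (Pgam1, Eno2 and Pkm) and 3 lower (Pdha1, Pdk1 and Pgm2l1), beside 14.7% of all genes tested (6.22% higher and 8.50% lower). The groups did not overlap for 3 genes that lay above (Pfkm, Eno2 and Pkm) and 3 that lay below (Pdha1, Pdk1 and Pgm2l1), beside 5.33% and 6.67% of all genes tested, 12.0% together. Their log2 differences ran from -0.30 to 0.10 with a median of 0.02, beside 0.00 over all genes tested.

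**Figure D1:**
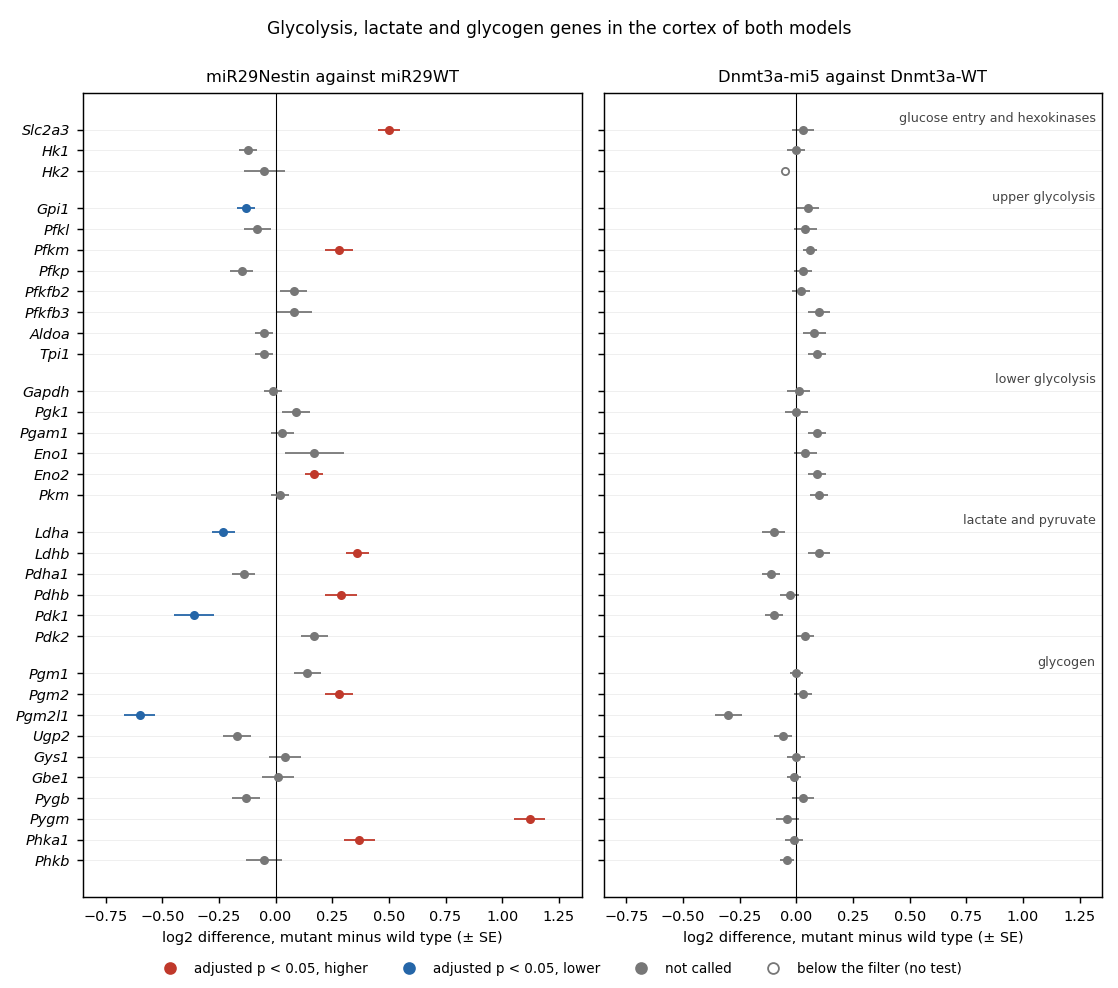
Log2 difference (mutant minus wild type, x axis, on the deposited variance-stabilised scale) of each of the 33 genes in both models, with ± 1 SE as a bar; red points were called higher, blue lower, grey not, and the open point (Hk2 in the Dnmt3a model) was not tested. In the miR29 model 8 genes are called higher and 4 lower, from Pgm2l1 at -0.60 to Pygm at 1.12, while in the Dnmt3a model the values lie between -0.30 and 0.10.

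Glucose enters neurons mainly through Slc2a3 (GLUT3), a high-affinity transporter, and is trapped by hexokinase. The counts of Slc2a3 were 3470, 3410 and 3485 in miR29Nestin and 2350, 2351 and 2453 in miR29WT. All mutant libraries lay above all wild-type ones, and the spread within each group was small beside the gap. The 1.45-fold difference (log2 difference 0.50, SE 0.05) had an adjusted p of 6.04e-05 (limma). In Dnmt3a-mi5 cortex no such gap was detected. Slc2a3 read 1473, 1408, 1544 and 1508 in Dnmt3a-mi5 and 1340, 1647, 1387 and 1419 in Dnmt3a-WT, and the groups overlapped (log2 difference 0.03, 95% interval -0.09 to 0.15). Its difference was larger in the miR29 model than in the other by 0.47 (SE 0.07, adjusted p = 9.65e-04, limma test of the difference). Whether the seed match in its 3′ UTR had a part in it was not tested.

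Hk1, the main brain hexokinase, took 99.2% of the counts per kilobase of the pair Hk1 and Hk2 in miR29WT. Its levels were 4958, 4798 and 4883 in miR29Nestin and 5240, 5222 and 5511 in miR29WT, lower in every mutant library but short of the threshold (log2 difference -0.12, adjusted p = 0.0804). Hk2, the inducible form, was scarce in all 14 libraries, at 33.7 to 74.5 normalised counts, and its groups overlapped in both models.

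In upper glycolysis the muscle-type subunit of phosphofructokinase, the enzyme that commits sugar to glycolysis, was higher. Pfkm read 6996, 6128 and 6329 in miR29Nestin and 5429, 5031 and 5395 in miR29WT. The groups were separate, with a 1.23-fold difference (log2 difference 0.28, SE 0.06, limma adjusted p = 0.00591). Pfkp, the platelet-type subunit, read 3201, 2987 and 2875 against 3281, 3384 and 3428, and its log2 difference of -0.15 had an adjusted p of 0.0683, or 0.0493 in the fit with the replicate number as a block. It was 0.0251 without miR29Nestin library 1, the highest of the mutant libraries. Pfkl, the liver-type subunit, was at -0.08 with overlapping groups. Counted per kilobase, Pfkm made up 65.6 ± 0.64% of the phosphofructokinase messages in miR29Nestin and 58.6 ± 1.14% in miR29WT (SD, n = 3 each). The same share in the Dnmt3a mice was 57.2 ± 0.69% in the mutant and 56.7 ± 1.14% in the wild type (SD, n = 4 each).

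Pfkm was also separate between the groups of the Dnmt3a model, at 4799, 4846, 4798 and 4831 against 4692, 4513, 4562 and 4659, but by a log2 difference of 0.06 with an adjusted p of 0.463. Its difference between the models was 0.22 (adjusted p = 0.0357, limma). That call was lost in 12 of the 22 alternative analyses.

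Gpi1, which converts glucose-6-phosphate to fructose-6-phosphate, stood at 6105, 6078 and 6040 in miR29Nestin and at 6622, 6781 and 6626 in miR29WT. All mutant libraries were lower, by 9.0% in the mean (log2 difference -0.13, adjusted p = 0.0437). The call was lost whichever of the 6 libraries was left out (adjusted p 0.0591 to 0.142). The other genes of upper glycolysis were not called. Aldoa (fructose-bisphosphate aldolase) and Tpi1 (triosephosphate isomerase) were both at -0.05, and Pfkfb2 and Pfkfb3, which set the level of the activator fructose-2,6-bisphosphate, were both at 0.08. Pfkfb2, the other gene with a seed match, read 665, 713 and 723 in miR29Nestin and 656, 627 and 673 in miR29WT, and the groups overlapped (adjusted p = 0.343). In the Dnmt3a model the log2 differences of the 8 genes of upper glycolysis were small, from 0.02 to 0.10, and none reached an unadjusted p under 0.05. After adjustment limma called 0 of them, beside 0.122% of all genes tested there.

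Lower glycolysis, which turns triose phosphates into pyruvate, had 1 of its 6 genes called, beside 19.1% of all genes tested. Gapdh, often used as a reference gene, stood at 13132, 13236 and 13188 in miR29Nestin and at 13161, 13569 and 13118 in miR29WT, a log2 difference of -0.01 with a 95% interval of -0.09 to 0.07. Pgk1 (phosphoglycerate kinase), Pgam1 (phosphoglycerate mutase) and Pkm (pyruvate kinase) were at 0.09, 0.03 and 0.02 with overlapping groups. Eno2, the neuron-specific enolase, was the 1 gene called there, at 15371, 14713 and 15295 against 13389, 13632 and 13274. It was higher in every mutant library by a modest 1.13-fold (log2 difference 0.17, SE 0.04, limma adjusted p = 0.0130). Without miR29WT library 3 its adjusted p was 0.0614.

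Eno1, the widely expressed enolase, had the same log2 difference of 0.17 but an SE of 0.13, and was not called (adjusted p = 0.380). Its libraries read 1902, 1345 and 1701 in miR29Nestin and 1775, 1262 and 1303 in miR29WT, with the library numbered 1 highest in both groups. A near-identical copy, Eno1b, was listed at 1986 ± 165 and 1877 ± 124 (SD, n = 3 each), so reads may have been divided between both rows and the level of Eno1 is uncertain. In Dnmt3a-mi5 mice Eno2 read 9840, 10088, 9882 and 9703 against 9118, 9206, 9330 and 9314, and Pkm 12450, 13277, 12804 and 12950 against 11687, 12384, 11767 and 12263. Both were separate between groups and higher in the mutant, with adjusted p of 0.287 and 0.334.

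Lactate and pyruvate genes had the largest share of calls. Ldhb encodes the heart-type subunit of lactate dehydrogenase, which predominates in neurons, and stood at 8024, 7378 and 7574 in miR29Nestin against 6150, 5788 and 5852 in miR29WT. This was a 1.29-fold difference with no overlap (log2 difference 0.36, SE 0.05, limma adjusted p = 5.63e-04). Ldha, the muscle-type subunit, moved the other way, at 2864, 2717 and 2655 against 3134, 3434 and 3205. It was 15.7% lower in the mutant (log2 difference -0.23, SE 0.05, limma adjusted p = 0.0112), or at an adjusted p of 0.0580 without miR29WT library 2. The share of Ldhb in the lactate dehydrogenase messages was 79.6, 79.1 and 79.9% in miR29Nestin and 73.2, 70.1 and 71.8% in miR29WT.

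At 4.5 months in the Dnmt3a model these 2 genes had log2 differences with the same signs, 0.10 for Ldhb (95% interval -0.02 to 0.22) and -0.10 for Ldha (-0.22 to 0.02). Neither was called, and the groups overlapped for both. The difference between the models was 0.26 for Ldhb (adjusted p = 0.0415, limma), a call lost in 13 of the 22 alternative analyses.

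Of the pyruvate dehydrogenase subunits, Pdhb (E1 beta) was higher and Pdha1 (E1 alpha, X-linked) was not called. Pdhb stood at 1829, 1480 and 1719 in miR29Nestin against 1385, 1294 and 1325 in miR29WT. The groups did not overlap, though the mutant libraries were widely spread (1.26-fold, log2 difference 0.29, SE 0.07, limma adjusted p = 0.0155). The adjusted p was 0.0690 without miR29WT library 2 and 0.0544 without miR29WT library 3. Pdha1 read 2741, 2686 and 2785 against 3036, 2932 and 3108, lower in every mutant library, with an adjusted p of 0.0658, or 0.0398 with the replicate block. With the knock-in Pdha1 was again lower in every mutant library (2086, 2307, 2297 and 2215 against 2433, 2498, 2470 and 2330), with an adjusted p of 0.263. Pdhb there was at -0.03, and its difference between the models was 0.31 (adjusted p = 0.0205, limma), or at an adjusted p of 0.0544 without miR29WT library 2.

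Of the kinases that phosphorylate and inhibit pyruvate dehydrogenase, Pdk1 was lower and Pdk2 was not called. Pdk1 stood at 636, 774 and 649 in miR29Nestin against 1051, 808 and 938 in miR29WT, 26.4% lower in the mean (log2 difference -0.36, SE 0.09, limma adjusted p = 0.0153). The groups were close at their edges, 774 against 808, and the adjusted p was 0.0524 without miR29WT library 1 and 0.0536 without library 3. Pdk2, the more abundant kinase per kilobase, read 1673, 1450 and 1549 against 1468, 1310 and 1310. Its log2 difference of 0.17 had an adjusted p of 0.0872, which became 0.0239 with the replicate block and 0.0369 with a term for sex. The share of Pdk2 among these 2 kinases was 83.9 ± 2.41% in miR29Nestin and 77.2 ± 1.49% in miR29WT (SD, n = 3 each). With the knock-in Pdk1 was lower in every mutant library (622, 746, 692 and 716 against 774, 779, 757 and 749) with an adjusted p of 0.319, and the share of Pdk2 was 80.1 ± 1.13% against 77.9 ± 1.06% (SD, n = 4 each).

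**Figure D2:**
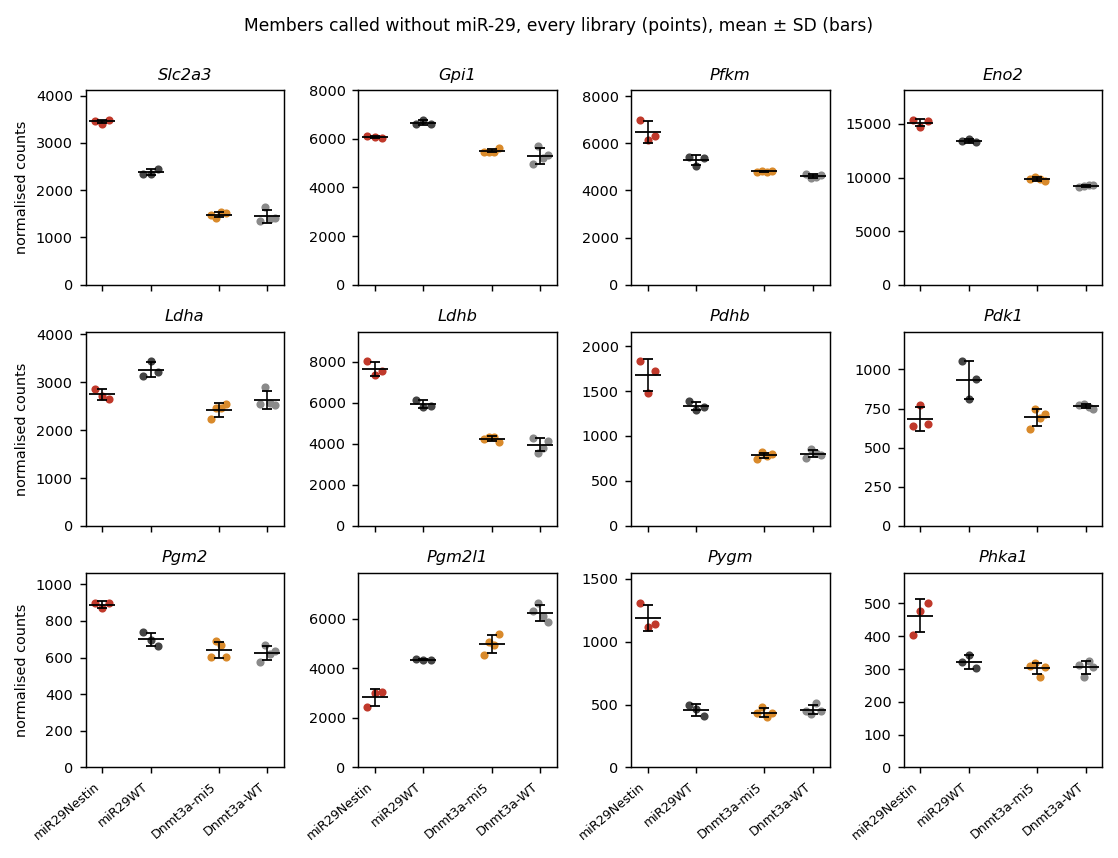
Normalised counts per library (y axis) of the 12 genes called in the miR29 model, 1 panel per gene, with the mean ± SD of each group as a bar; points are libraries of miR29Nestin, miR29WT, Dnmt3a-mi5 and Dnmt3a-WT, and levels are to be compared only within a model, since the tables were normalised separately. Pygm reads 1114 to 1310 in miR29Nestin and 408 to 497 in miR29WT, and Pgm2l1 lies below its wild type in both models.

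The largest difference of the 33 genes was in glycogen breakdown. Pygm, the muscle isozyme of glycogen phosphorylase, which in brain is found mainly in astrocytes, stood at 1310, 1114 and 1143 in miR29Nestin and at 497, 464 and 408 in miR29WT. The lowest mutant library was far above the highest wild-type one. The difference was 2.61-fold, 1189 ± 106 against 456 ± 45.0 (SD, 3 libraries each), with a log2 difference of 1.12 (SE 0.07, limma adjusted p = 6.16e-06). Pygb, the brain isozyme, read 1874, 1627 and 1684 against 1785, 1948 and 1997, with overlapping groups and a log2 difference of -0.13 (adjusted p = 0.174). Pygm therefore took 48.7, 48.2 and 48.0% of the messages of the pair, per kilobase, in miR29Nestin and 27.5, 24.5 and 21.8% in miR29WT.

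No such difference was detected in the Dnmt3a model. Pygm read 433, 480.2, 399 and 429.9 in Dnmt3a-mi5 and 451, 422, 512 and 449 in Dnmt3a-WT, with a log2 difference of -0.04 and a 95% interval of -0.15 to 0.06. The difference between the models was 1.16 (SE 0.09, limma adjusted p = 3.06e-06). Age, library kit and normalisation differ between the models along with the genotype, and cannot be told apart from it. The gene lies at chr19:6384399-6398459 on the plus strand (GRCm38), and its longest 3′ UTR of 265 nt holds 0 seed matches.

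Phosphorylase kinase activates glycogen phosphorylase. Its muscle-type regulatory subunit Phka1, which is X-linked, stood at 405, 478 and 502 in miR29Nestin against 320.2, 344 and 302 in miR29WT, 1.43-fold higher (log2 difference 0.37, SE 0.07, limma adjusted p = 0.00555). With a term for sex the log2 difference was 0.32 and the adjusted p 0.00597, and without the filter on low values the call was lost (adjusted p = 0.0796). Phkb, the beta subunit, overlapped between groups at -0.05. With the knock-in Phka1 was at -0.01 (95% interval -0.09 to 0.08), and the difference between the models was 0.37 (adjusted p = 0.00644, limma).

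Genes of glycogen synthesis were not called. Gys1 (glycogen synthase) was at 0.04 and Gbe1 (the branching enzyme) at 0.01, both with overlapping groups. Ugp2, which makes the UDP-glucose that glycogen synthase uses, read 927, 927 and 903 against 1134, 1061 and 975. It was lower in every mutant library, with an adjusted p of 0.0710, or 0.0398 with the replicate block. With that block 9 of the 33 genes were called higher and 7 lower, against 8 and 4 without it. All 12 genes called without the block were among them, and the 4 added were Pdha1, Pdk2, Pfkp and Ugp2.

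Phosphoglucomutases stand between glycogen and glycolysis, and in miR29Nestin cortex Pgm2l1 was called lower, Pgm2 higher and Pgm1 not called. Pgm2l1, a relative expressed in brain that makes glucose-1,6-bisphosphate, the cofactor of phosphoglucomutase, stood at 2431, 3003 and 3044 in miR29Nestin against 4380, 4333 and 4336 in miR29WT. All mutant libraries lay below a tight wild-type group, by 35.0% in the mean (log2 difference -0.60, SE 0.07, limma adjusted p = 3.46e-04). The row named Pgm2 stood at 899, 869 and 898 against 738, 698 and 665, 1.27-fold higher (log2 difference 0.28, SE 0.06, adjusted p = 0.00536), and the row named Pgm1 at 125, 133 and 123 against 115, 94.7 and 101 (log2 difference 0.14, adjusted p = 0.156). RefSeq lists each of these 2 symbols as a synonym of the other, so which of the 2 enzymes each row holds is not settled.

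Pgm2l1 was also the gene with the largest difference in the Dnmt3a model. It read 4540, 5047, 4957 and 5398 in Dnmt3a-mi5 against 6300, 6641, 6116 and 5871 in Dnmt3a-WT. Again every mutant library lay below every wild-type one, by 20.0% in the mean (log2 difference -0.30, SE 0.06, 95% interval -0.43 to -0.18). The adjusted p over all genes was 0.112, and 0.0398 when the term for the removed effect was left out of the limma fit. Its longest 3′ UTR, of 6438 nt, holds 0 seed matches, where 44.8% of genes with a 3′ UTR about as long hold one. The difference between the models was -0.29 with an adjusted p of 0.0688, below 0.05 without miR29Nestin library 3 (0.0370), Dnmt3a-WT library 2 (0.0437) or Dnmt3a-mi5 library 1 (0.0408).

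**Figure D3:**
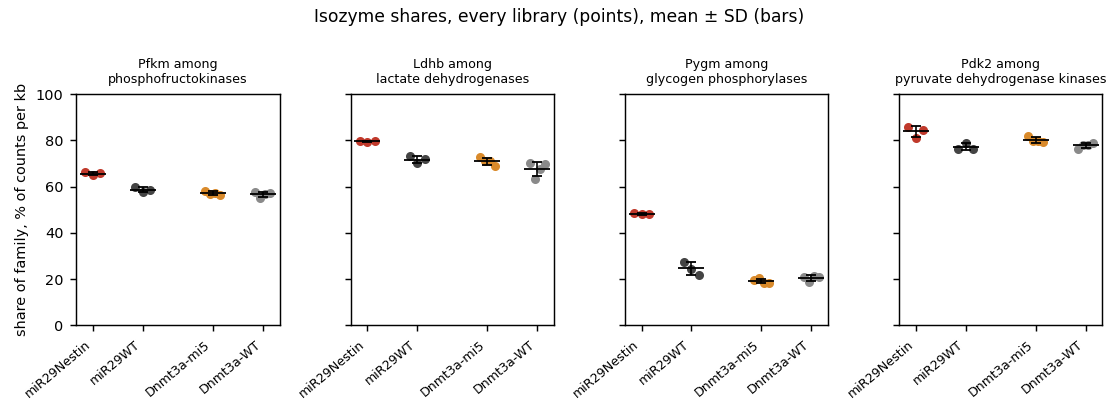
Share of 1 isozyme in its family (y axis, percent of normalised counts per kilobase of the longest coding transcript) in each library of the 4 groups. Pygm takes 48.0 to 48.7% in miR29Nestin and 21.8 to 27.5% in miR29WT, and Ldhb 79.1 to 79.9% and 70.1 to 73.2%, while in the Dnmt3a model Pygm takes 18.4 to 21.4% in all 8 libraries.

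Set side by side, the mutant and wild-type groups of both models were separate and on the same side for 5 of the 32 genes tested in both. Pfkm and Eno2 were higher in both, and Pdha1, Pdk1 and Pgm2l1 lower in both. Among 10610 genes tested in both tables, 1.47% were separate and higher in both and 2.44% separate and lower in both. None of the 32 genes was separate in opposite directions, against 1.30% of all genes. The test of the difference between the models called 7 of the 32 genes, all with the larger value in the miR29 model (Slc2a3, Pfkm, Ldhb, Pdhb, Pgm2, Pygm and Phka1), and 0 with the smaller. Over the 10610 genes it called 12.2%, 6.27% with the larger value and 5.89% with the smaller. The variance-stabilised scales of the 2 models compress low counts unequally, which this test does not correct. On the log2 scale of inverted counts + 1, Pfkm, Ldhb and Pgm2 lost the call (limma adjusted p = 0.0506, 0.0684 and 0.0610). Slc2a3 and Pygm kept that call in all 22 alternative analyses of it, Pdhb in 20, Pgm2 in 17, Pfkm in 10 and Ldhb in 9. Phka1 kept it in the 21 alternatives in which it was tested.

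Levels per kilobase set the genes in order. In miR29WT, Aldoa was highest at 13054 ± 248 normalised counts per kilobase, then Gapdh at 9354 ± 175, with Tpi1, Eno2, Ldhb and Pkm between 4170 and 4927 (SD, n = 3). Tpi1 at 4927 ± 50.7 and Eno2 at 4806 ± 65.4 were neighbours in that order. The genes of glycogen lay no higher than Pgm2l1, at 492 ± 3.00. Pygb stood at 489 ± 28.4, Pygm at 159 ± 15.6, Gys1 at 74.2 ± 9.30, Phka1 at 52.7 ± 3.48 and Gbe1 at 38.8 ± 4.07. Some genes of other steps were as low, among them Pfkl at 482 ± 27.5, Pdk1 at 179.8 ± 23.4 and Pfkfb2 at 147 ± 5.24. Hk2 was lowest of the 33 genes at 9.55 ± 3.10. In Dnmt3a-WT Aldoa (9981 ± 288) and Gapdh (6512 ± 274) were again highest and Hk2 (11.5 ± 2.66) lowest (SD, n = 4). Lengths are those of the longest coding transcript, so these levels are approximate.

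A list of 71 other genes of the pathway was read in the same fits. In the miR29 model 58 were tested, 11 were called higher and 6 lower, 29.3% in all beside 19.1% of all genes tested (9.02% higher and 10.0% lower). Their median log2 difference was 0.05, beside -0.01 over all genes tested. Named here are the 6 with the smallest p in each direction. Glycogen-targeting subunits of protein phosphatase 1, which bring the phosphatase to glycogen synthase and phosphorylase, were among the higher ones. Ppp1r3g stood at 196, 203 and 233 in miR29Nestin against 121, 117 and 114 in miR29WT (1.80-fold, limma adjusted p = 8.34e-04), and Ppp1r3d at 216, 208 and 178 against 143, 106 and 89.8 (1.78-fold, adjusted p = 0.00509). Stbd1, which anchors glycogen to membranes for its delivery to lysosomes, was lower, at 48.4, 40.1 and 51.6 against 86.8, 117 and 131 (adjusted p = 0.00202). Its mean in miR29Nestin (46.7) lay just under the filter of about 48.0 normalised counts, so Stbd1 was tested only through its wild-type level. Of the 19 other glycogen genes listed, only Ppp1r3g, Ppp1r3d and Stbd1 were called, beside 19.1% of all genes tested. Gys2, Pygl and Ppp1r3b were too low to be tested. The related phosphatase subunits Ppp1r3c, Ppp1r3e and Ppp1r3f were not called (log2 differences 0.08, -0.20 and 0.11).

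Pgam2, the muscle form of phosphoglycerate mutase, was 2.30-fold higher, at 138, 163 and 182 against 72.8, 58.7 and 78.4 (limma adjusted p = 6.58e-04). Pdhx, a structural subunit of the pyruvate dehydrogenase complex, was 1.26-fold higher (adjusted p = 0.00793), and Pdpr, the regulatory subunit of its phosphatase, was lower (log2 difference -0.29, adjusted p = 0.0368). Hkdc1, a hexokinase relative, was lower, at 221, 204 and 172 against 306, 334 and 326 (adjusted p = 0.00162). Of the glycerol phosphate shuttle, which moves reducing equivalents from cytosolic NADH to the mitochondrion, Gpd2 was lower at 1194, 1284 and 1282 against 1531, 1616 and 1755 (adjusted p = 0.00299). Gpd1l, a relative of its cytosolic enzyme, was also lower (log2 difference -0.18, adjusted p = 0.0434).

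Of 8 regulators of the hypoxia response, a main control of glycolytic genes, 3 were called higher (Vhl, Epas1 and Hif3a), 1 lower (Hif1a) and 4 not. Over all genes tested in the miR29 model, 9.02% were called higher and 10.0% lower. Vhl, the ubiquitin ligase component that marks hypoxia-inducible factors for destruction, stood at 1289, 1172 and 1139 against 844, 757 and 767, 1.52-fold higher (limma adjusted p = 3.20e-04). Epas1 (HIF-2 alpha) was 1.42-fold higher, at 2257, 2355 and 2038 against 1625, 1515 and 1551 (adjusted p = 5.00e-04). Hif1a was lower at 465, 542 and 608 against 667, 660.0 and 694 (adjusted p = 0.0333). Hif3a, a member of the same family, was added by name after its values were seen; it read 266, 356 and 476 against 92.1, 123 and 272, 2.26-fold higher with overlapping groups (adjusted p = 0.0193). Of the 71 genes, 55 were tested in the Dnmt3a model and limma called 0, with 11 at an unadjusted p under 0.05, which 14.7% of all genes tested reached. Of the genes called in the miR29 model and described here, 5 had separate groups there, with none called. Pgam2 and Stbd1 were too low to be tested there. Separate groups were found for 12.0% of all genes tested in that model (5.33% above and 6.67% below). Hif1a was lower, at 796, 726, 778 and 762 against 866, 934, 899 and 878 (adjusted p = 0.131), and so were Gpd1l (adjusted p = 0.178) and Pdhx (adjusted p = 0.334), the last against its direction in the miR29 model. Ppp1r3g was higher, at 141, 133, 142 and 136 against 86.9, 131, 98.2 and 115 (adjusted p = 0.229), and so was Hif3a, at 121, 125, 98.6 and 98.7 against 33.3, 75.9, 62.5 and 78.2 (adjusted p = 0.152). Every Dnmt3a-WT value of Hif3a lay under the filter of about 80.1 normalised counts, so it was tested there only through its mutant level.

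**Figure D4:**
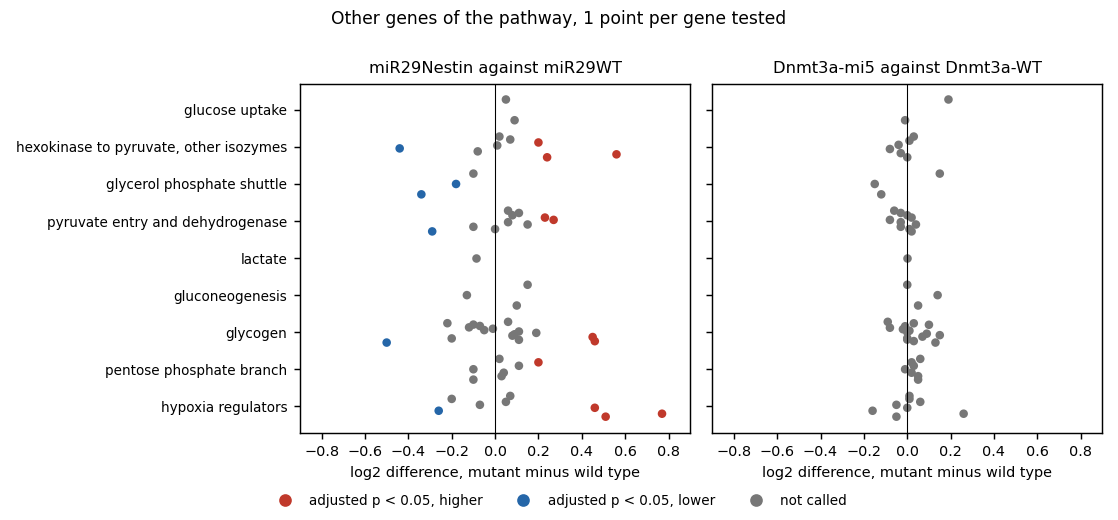
Log2 difference (mutant minus wild type, x axis, variance-stabilised scale) of each other pathway gene tested, 1 point per gene, by step (y axis), in the miR29 model (left) and the Dnmt3a model (right); red points were called higher, blue lower and grey not. In the miR29 model 11 points are red, up to 0.77, and 6 blue, down to -0.50, while the Dnmt3a model has 0 called and values from -0.16 to 0.26.

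Cell type markers moved with the groups in the miR29 model. Of 6 markers of excitatory neurons, 4 were called lower and 0 higher, and their summed level was 75182 to 81587 normalised counts in miR29Nestin against 88073 to 100528 in miR29WT. The largest part of that sum is Camk2a, which was lower in every mutant library but not called (limma adjusted p = 0.118). Of 6 astrocyte markers 3 were called higher (Gfap, Gja1 and Slc1a2) and 1 lower (Slc1a3), with sums of 54316 to 58684 against 49684 to 51811, most of which is Slc1a2. Oligodendrocyte markers (2 of 6 higher, sums 103728 to 115825 against 95224 to 105921), oligodendrocyte precursor markers (2 of 4 higher, 3407 to 3711 against 2723 to 3242) and leptomeningeal markers (2 of 4 tested higher, 1220 to 1578 against 551 to 946) were called in 1 direction only. Most of the leptomeningeal sum is Igf2 (mean 1162 against 585). Igf2 and Col1a1 were the ones called, while Dcn and Slc6a13 were not (log2 differences -0.07 and 0.15). Of 6 interneuron markers 2 were called higher and 2 lower, and of the 5 microglial and 5 endothelial markers 0 were called.

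No marker of the 11 lists was at 0 in all libraries of a group. In bulk tissue, more or fewer cells of a type and more or less RNA per cell cannot be told apart, and the part of these markers in the differences of the 33 genes was not tested. Beside the 2.61-fold difference of Pygm, the astrocyte glutamate transporter Slc1a2 stood at 42994 ± 2245 in miR29Nestin and 38371 ± 874 in miR29WT, and Gfap, the astrocyte intermediate filament, at 2922 ± 208 and 1950 ± 95.3 (SD, 3 libraries each). Other astrocyte markers went the other way. The glutamate transporter Slc1a3 stood at 5876 ± 127 and 6659 ± 288 and was called lower, and the folate enzyme Aldh1l1 at 617 ± 59.6 and 736 ± 39.2, lower in every mutant library but not called (SD, 3 libraries each). With the knock-in 1 marker was called, Cx3cr1 of microglia, which was lower. The sums of astrocyte markers were 52440 to 54428 in Dnmt3a-mi5 against 59878 to 64127 in Dnmt3a-WT, and those of choroid plexus markers ran from 81.5 to 13010 over the libraries of that model.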

How the data were processed

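Polyadenylated RNA of cortex was sequenced as stranded paired-end libraries, with different RNA and library kits for the 2 models, per the labels' protocols. Tools named in the submitters' processing notes, without roles, are DESeq2, Salmon, STAR and cutadapt, and builds are hg19 and mm9. The authors deposited, for each model, 1 table of 24444 genes of log2 values, which are variance-stabilised values of DESeq2 by the tables' names. Each table was inverted in closed form from its zero level (6.5861 and 7.6295). For miR29 libraries, 91.8 to 92.7% of low values then lay within 0.05 of a whole read. Among Dnmt3a libraries, 2 sets of 4 had equal means for every gene within 5.5e-09 (0.538 for the next such split), so an additive effect had been removed; a term for it took back 1 degree of freedom. Columns of that table repeat their names, so its libraries are numbered by column order.

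Groups were compared within each table with limma 3.58.1 (R 4.3.3), moderating variances along a trend with mean level and adjusting p by Benjamini-Hochberg over the genes kept by a filter (mean 1 or more above the table's minimum, about 48.0 and 80.1 normalised counts). The difference between the models was a contrast in 1 limma fit of all 14 libraries. The method was tested on simulated data. Same-numbered miR29 libraries deviated together (r = 0.34, 0.20 and 0.19), so the replicate number was also used as a block. Pairs with different numbers ran from -0.33 to 0.18, the highest close to the lowest same-numbered pair, so the evidence for pairing is weak. The sexes were the same within numbers 1 and 2 but not within number 3. The labels do not say that libraries are separate mice, so p-values measure the spread between libraries. Named were all 33 genes and, of the other pathway genes, the 6 with the smallest p in each direction in the miR29 model among those called. Members and lists were chosen with earlier results of these data known. Alternatives were other filters, scalings, variance priors and terms, and leaving out each library.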

Additional observations from a re-analysis of the deposited data

Results flagged for a closer look

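Of 66 groups of 4 libraries examined (each gene in Dnmt3a-mi5 and Dnmt3a-WT), 3 had 1 library far from the others by Dixon's criterion for the gap over the range, where chance gives about 1 in 20. Hk1 read 5050 in Dnmt3a-mi5 library 1 against 5249 to 5290 in the others (gap over range 0.832). Gpi1 read 5608 in Dnmt3a-mi5 library 4 against 5480 to 5482 (0.983), where the other libraries were almost equal. Ldha read 2907 in Dnmt3a-WT library 2 against 2515 to 2563 (0.872).

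The difference between mutant and wild type was called unlike in the 2 models for 7 of the 32 genes tested in both (limma contrast, adjusted over 10610 genes). It was larger in the miR29 model each time. Over the 10610 genes 12.2% were called, 6.27% with the larger value in the miR29 model. Age, library kit and normalisation differ between the models too. The differences were 1.16 for Pygm (adjusted p = 3.06e-06), 0.47 for Slc2a3 (9.65e-04), 0.37 for Phka1 (0.00644), 0.31 for Pdhb (0.0205), 0.26 for Pgm2 (0.0235), 0.22 for Pfkm (0.0357) and 0.26 for Ldhb (0.0415) on the log2 scale. The mutant libraries lay above the wild-type ones in all 3 miR29Nestin libraries for each of them. Of the 22 alternative analyses, the call was lost in 13 for Ldhb, 12 for Pfkm, 5 for Pgm2 and 2 for Pdhb.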

How the results depend on the processing

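No gene called in a comparison turned its direction under the alternatives run for it. Differences near 0 that were not called did turn sign with 1 library left out, among them Hk2 (-0.14 to 0.02), Gys1 (-0.03 to 0.08), Gbe1 (-0.03 to 0.05) and Phkb (-0.13 to 0.01) in the miR29 model and Pfkfb2 (-0.02 to 0.05) and Eno1 (-0.01 to 0.08) in the Dnmt3a model. In the miR29 model the calls of Slc2a3, Ldhb, Pgm2, Pgm2l1 and Pygm held under every alternative. Without the filter on low values, more genes are tested and the variance trend is fitted over all of them. In that fit 4 genes were called higher and 2 lower (all genes: 446 and 402). The calls lost were Pfkm, Eno2, Ldha, Pdhb, Pdk1 and Phka1 (limma adjusted p = 0.0951, 0.108, 0.0766, 0.151, 0.181 and 0.0796). With the replicate block 7 were called lower, and the block ended no call of the 12. Leaving out 1 library gave 6 to 8 higher and 2 to 4 lower (all genes: 666 to 1019 and 718 to 1294). In the Dnmt3a model, without the term for the removed effect, 1 gene was called lower (all genes: 24 higher and 61 lower), and without the filter 0 of all genes were called lower and Dnmt3a had an adjusted p of 0.139. Leaving out 1 library there gave 0 to 0 of the 33 genes in either direction (all genes: 1 to 15 higher and 0 to 67 lower). No paired analysis was possible because the columns of that table share replicate names. Alternatives of the contrast between the models were chosen after seeing the data: 3 genes had the higher effect without the filter, 4 on the log2 scale of inverted counts + 1, and 4 to 7 with 1 library left out. With the lower effect there was 1 gene under a stricter filter, 2 without the term and 0 to 3 with 1 library left out. The cause of these changes was not tested. Depth limits Hk2, Pgm1 and Gbe1 most, whose counts were lowest.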
